A study of Mus musculus with 10 samples.

Results

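The proteasome genes of isolated mouse glomeruli, the filtering units of the kidney, were followed across diabetes and overexpression of Esm-1. They were taken by symbol: every row of the table named Psma, Psmb, Psmc, Psmd, Psme, Psmf or Psmg followed by a digit, which gave 47 of 12934 genes. Of these, Psmb8, Psmb9, Psmb10, Psme1 and Psme2, called the immuno set below, were contrasted with the 42 other genes. Glomerular RNA was sequenced in 10 libraries. All mice were wildtype DBA/2J, 17 weeks old, of a strain marked DKD-susceptible (DKD is diabetic kidney disease), and all had been injected hydrodynamically, that is fast and in a large volume, at 7 weeks of age. The non-diabetic saline group (n = 3) had saline and then vehicle, and the diabetic saline group (n = 4) had saline and then streptozotocin, a toxin of pancreatic beta cells, from 8 weeks. The diabetic Esm-1 group (n = 3) had a plasmid for mouse Esm-1, a proteoglycan secreted by endothelial cells, together with the Sleeping Beauty transposase, and then streptozotocin. A 60% high-fat diet followed in streptozotocin-treated mice alone and lasted 5 weeks, so diabetes and diet cannot be told apart. No group had Esm-1 without diabetes, and none had plasmid and transposase without Esm-1. The labels do not say whether a library is 1 animal, so p-values measure only the spread between these libraries, which may be technical.

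The proteasome is the protease that degrades proteins tagged with ubiquitin. Its barrel, the 20S core, has outer alpha rings (Psma genes) and inner beta rings (Psmb genes), and the 19S cap (Psmc and Psmd genes) recognises, unfolds and feeds in the substrate. In cells that receive interferon, Psmb8, Psmb9 and Psmb10 replace the constitutive catalytic subunits Psmb5, Psmb6 and Psmb7 in newly made cores, which gives the immunoproteasome. The activator PA28, made of Psme1 and Psme2, is likewise induced, and both are known for making peptides that MHC class I molecules present.

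The promoters of 4 genes show the members that the results turn on: Psmb8 and the constitutive gene it replaces, Psmb5, then Psmb9 and Psme1. Each runs from 250 bases before to 50 bases after the annotated start, 5′ to 3′ on the gene's strand, as RefSeq gives it for GRCm38.p6. Capitals mark a match to the interferon-stimulated response element core (GAAA, any 2 bases, GAAA) or the gamma-activated site core TTCNNNGAA in Psmb8, Psmb9 and Psme1, and to the antioxidant response element core TGACNNNGC in Psmb5, each searched on both strands.
Psmb8: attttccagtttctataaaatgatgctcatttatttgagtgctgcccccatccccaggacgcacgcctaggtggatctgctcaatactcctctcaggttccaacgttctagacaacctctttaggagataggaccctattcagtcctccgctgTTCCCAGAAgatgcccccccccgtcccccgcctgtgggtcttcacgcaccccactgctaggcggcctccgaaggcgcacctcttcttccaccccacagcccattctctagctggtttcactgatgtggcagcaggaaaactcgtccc
Psmb5: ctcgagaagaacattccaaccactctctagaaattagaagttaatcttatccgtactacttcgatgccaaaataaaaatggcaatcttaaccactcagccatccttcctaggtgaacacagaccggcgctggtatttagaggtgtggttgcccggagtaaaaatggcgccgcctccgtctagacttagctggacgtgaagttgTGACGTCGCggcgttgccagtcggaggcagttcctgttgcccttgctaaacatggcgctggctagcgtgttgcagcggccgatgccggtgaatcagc
Psmb9: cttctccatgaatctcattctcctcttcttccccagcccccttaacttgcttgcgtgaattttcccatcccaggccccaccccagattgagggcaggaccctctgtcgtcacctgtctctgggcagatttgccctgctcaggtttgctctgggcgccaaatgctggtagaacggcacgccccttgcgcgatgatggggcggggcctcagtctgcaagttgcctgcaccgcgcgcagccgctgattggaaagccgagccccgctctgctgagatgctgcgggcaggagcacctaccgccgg
Psme1: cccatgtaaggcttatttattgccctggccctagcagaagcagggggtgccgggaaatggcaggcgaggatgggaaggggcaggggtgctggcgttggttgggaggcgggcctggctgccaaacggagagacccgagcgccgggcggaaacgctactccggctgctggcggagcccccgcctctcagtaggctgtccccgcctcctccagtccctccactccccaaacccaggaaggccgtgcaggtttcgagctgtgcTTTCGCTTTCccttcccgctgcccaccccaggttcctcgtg

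In Psmb8 (chr17:34197945-34198244, plus strand) the gamma-activated site match began 97 bases before the start. In Psme1 (chr14:55578244-55578543, plus strand) the response element match began 10 bases after the start, on the opposite strand. Psmb9 (chr17:34187281-34187580, minus strand) held neither of these 2 motifs in this window, and so has no capitals. In Psmb5 (chr14:54617946-54618245, minus strand) the match began 47 bases before the start. Promoters of other genes hold these motifs too. Promoters were found for 40 of the 47 genes. A gene was counted if any of its promoters held the motif. The response element core was in 5 genes (Psmb3, Psmd4, Psmd9, Psme1 and Psmg4), which is 12.5%, against 3.99% of 27025 genes with a promoter. Only Psme1 among the 5 belongs to the immuno set. The gamma-activated site core was in 3 (Psmb8, Psmd2 and Psmg1), 7.5% against 9.55% of all genes with a promoter. The antioxidant core was in 6 (Psmb5, Psmb6, Psmc6, Psmd12, Psmd9 and Psme4), 15% against 14% of all genes with a promoter. The box CCAAT was in 13, 32.5% against 41.1%. A match describes these letters only and is not a measured binding site.

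The libraries held 3931712 to 11300629 reads, of which Rn45s, the ribosomal RNA precursor, took 83.9% to 86.7%. Without Rn45s, Lars2 and Mir6236 there were 338549 to 962321 reads, and the 47 proteasome genes had 1081 to 2754 of them per library. A single read was worth 0.62 to 1.77 normalized counts, so genes at a few normalized counts rest on a few reads. Replicate 3 of non-diabetic saline and replicate 4 of diabetic saline carry title numbers under 100, the other 8 libraries numbers above it, and these libraries had the fewest reads. The markers of podocytes, endothelial and mesangial cells were all in the table, and their mean log2 level was 7.14 ± 0.14 (SD, n = 3) in non-diabetic saline, 6.79 ± 0.19 (n = 4) in diabetic saline and 6.27 ± 0.20 (n = 3) in diabetic Esm-1 libraries. In such bulk RNA, fewer cells of a type and less RNA per cell cannot be told apart. Myeloid markers had rows for 12 of 21 symbols. The symbols with no row in the table used here were Adgre1 (listed under its older name Emr1), Aif1, C1qb, C1qc, Cx3cr1, Lyz1, S100a8, S100a9 and Tyrobp. Lymphocyte markers had rows for 2 of 18.

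Proteasome genes were expressed in every library, and their levels differed widely by role. Per kilobase of exon, averaged over all libraries, the median gene stood at 19.9 normalized counts. The highest were Psme2 at 71.3, the non-catalytic beta subunit Psmb4 at 63.6 and Psme1 at 50.3. Of the constitutive catalytic genes, Psmb6 stood at 46.0 and Psmb7 at 37.4 per kilobase, and Psmb5 at only 7.39. Psmb5 shares 54.1% of its 50-base stretches with other loci, among them its pseudogene Psmb5-ps, so its level is uncertain. Of the immunoproteasome catalytic genes Psmb8 stood at 21.3, Psmb10 at 10.6 and Psmb9 at 7.41 per kilobase. The medians were 22.4 for the 7 alpha ring genes, 26.9 for the 6 ATPases of the cap, which unfold the substrate, and 24.98 for the 11 other cap subunits. The chaperones that assemble the core (Psmg genes) had a median of 4.70 and the inhibitor Psmf1 stood at 1.92. Over the 10 libraries the coefficient of variation of a gene had a median of 21.8%. It ran from 10.3% for Psma7 to 119% for Psmg3, a gene at a few reads, and was 42.3% for Psmb9 and 39.5% for Psmb8. The members lie on 16 chromosomes, with Psmb8 and Psmb9 on chromosome 17, Psmb10 on 8, and Psme1, Psme2 and Psmb5 on 14.

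**Figure D1:**
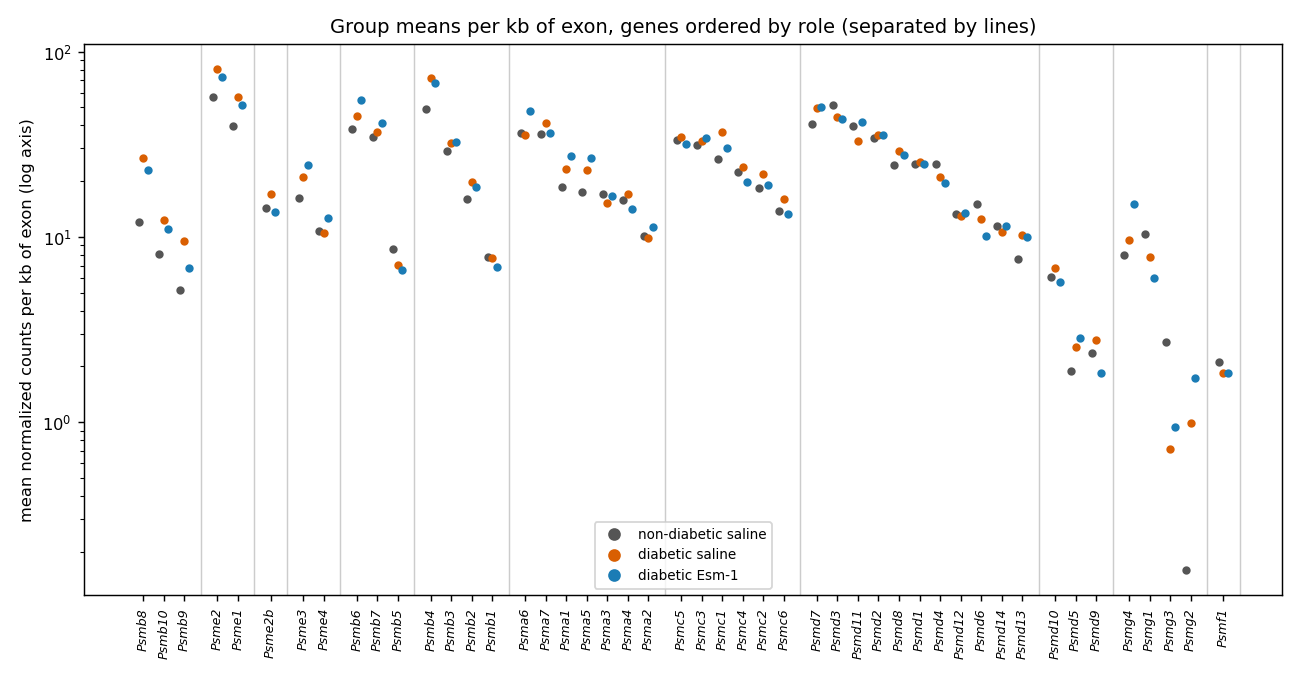
Mean normalized counts per kilobase of exon (log axis) of each of the 47 proteasome genes in the 3 groups, with genes ordered by role. Psme2, Psmb4 and Psme1 stand highest, and the chaperone Psmg2 lowest at 0.96 over all libraries.

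A gene was tested if it had at least 10 normalized counts in at least 3 libraries, which kept 40 of the 47 genes, all 5 of the immuno set among them. The test was limma on log2 of the normalized count plus 1 over 8239 genes, two-sided, with Benjamini-Hochberg adjusted p under 0.05 as the threshold. Folds are on that log2 scale and understate the change of genes with low levels. The 3 comparisons share libraries: diabetic saline enters both the diabetes and the Esm-1 comparison, and non-diabetic saline enters both comparisons with diabetic mice.

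With diabetes and high-fat diet, 1 proteasome gene rose past the threshold, Psmb8, and none fell. That is 2.5% of the 40 tested genes, against 5.53% of all genes called in either direction (3.73% higher and 1.81% lower), so the proteasome as a whole held no more calls than the background. Psmb8, the immunoproteasome counterpart of Psmb5, had 16.1, 25.4 and 17.5 normalized counts in the non-diabetic saline libraries and 32.8, 56.5, 55.1 and 30.1 in the diabetic saline libraries. Every diabetic saline library was above every non-diabetic one, and the means were 43.6 ± 14.1 (SD, n = 4) and 19.6 ± 5.02 (n = 3). The log2 difference was 1.08 (SE 0.25, 95% interval 0.55 to 1.61, limma adjusted p = 0.013), a 2.12-fold rise. Without the libraries with title numbers under 100 it was 1.17 (limma adjusted p = 0.0174). With a term for the glomerular marker mean it was 1.65 (limma adjusted p = 0.00212). That mean did not overlap between groups. It was 7.05 to 7.31 in non-diabetic saline, 6.59 to 6.97 in diabetic saline and 6.05 to 6.44 in diabetic Esm-1 libraries. Here and below, fits with this term therefore cannot separate the marker level from the group. The adjusted p passed 0.05 when non-diabetic saline replicate 1 (0.0746) or diabetic saline replicate 3 (0.0548) was left out, and without the intensity trend (0.053). Of the bases in the exons of Psmb8, 11.4% lie opposite those of the gene Gm20496, and the strandedness of the counting is not given in the sources used here, so reads of this stretch cannot be assigned to a strand.

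**Figure D2:**
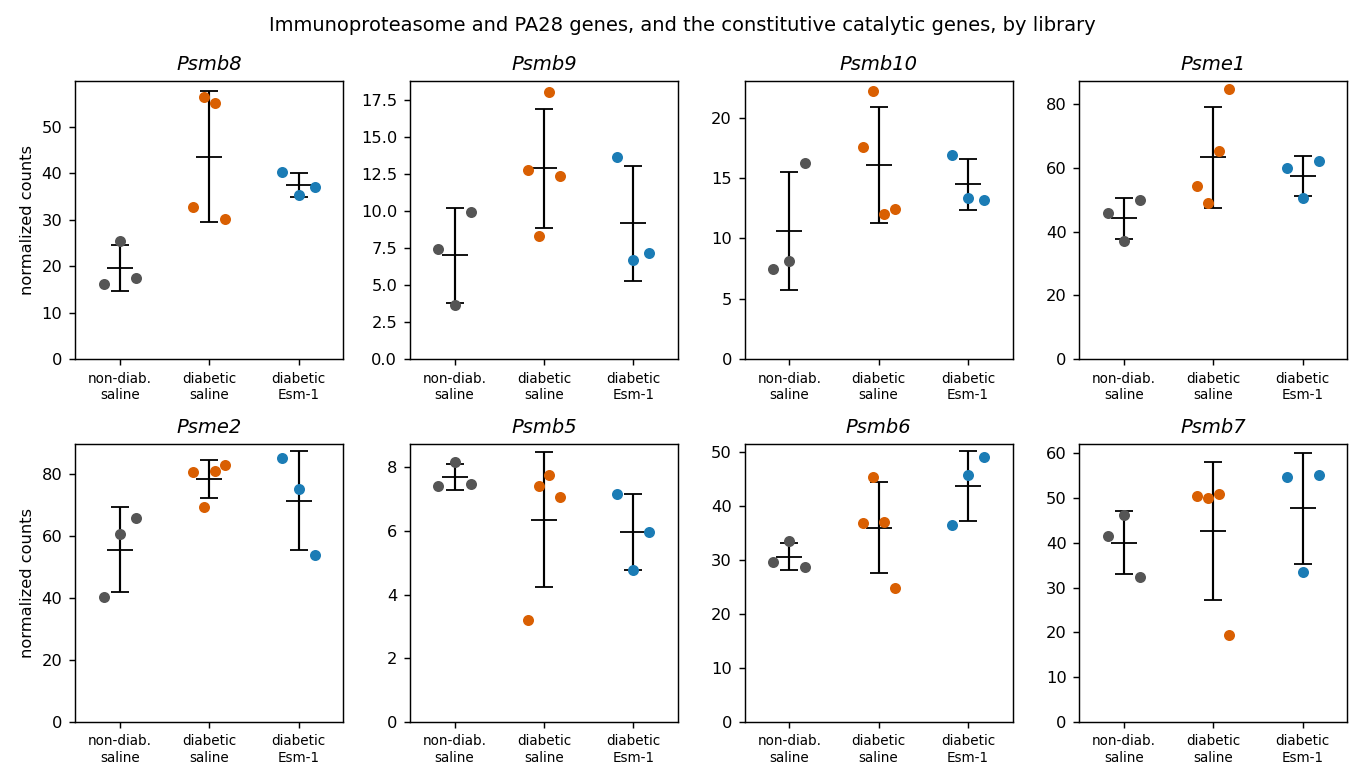
Normalized counts (linear axes from 0) of the immuno set and of Psmb5, Psmb6 and Psmb7 by library, with a point per library and a bar for the group mean. Psmb8 is the gene whose 4 diabetic saline libraries (30.1 to 56.5) and 3 diabetic Esm-1 libraries (35.3 to 40.4) all lie above the non-diabetic ones (16.1 to 25.4).

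The other 4 genes of the immuno set were higher on average in diabetic saline libraries but did not pass the test. Psmb9, the counterpart of Psmb6, had 7.43, 3.63 and 9.97 normalized counts in non-diabetic saline and 12.8, 8.33, 18.1 and 12.4 in diabetic saline libraries. Psmb10, the counterpart of Psmb7, had 7.43, 8.16 and 16.2 against 17.6, 22.2, 12.1 and 12.4. Both pairs of groups overlapped, and over all 10 libraries these genes had 4 to 26 reads each. The log2 difference of Psmb9 was 0.84 (SE 0.42, limma adjusted p = 0.289) and that of Psmb10 was 0.59 (SE 0.34, limma adjusted p = 0.365). The exons of Psmb9 lie opposite those of the peptide transporter gene Tap1 over 15.7% of their bases.

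Psme1, one of the PA28 subunits, had 45.8, 37.2 and 49.9 normalized counts in non-diabetic saline libraries and 54.4, 49.1, 65.5 and 85.0 in diabetic saline libraries. Psme2, its partner, had 40.2, 60.8 and 66.1 against 80.8, 69.4, 81.0 and 83.2. Psme1 overlapped by a single library, diabetic saline replicate 2, and Psme2 did not overlap. Their log2 differences were 0.49 (SE 0.21, limma adjusted p = 0.195) and 0.52 (SE 0.20, limma adjusted p = 0.158). The ratio of Psme1 to Psme2 was 0.84 ± 0.27 in non-diabetic saline, 0.80 ± 0.16 in diabetic saline and 0.84 ± 0.27 in diabetic Esm-1 libraries (SD). Psme2b is a copy of Psme2 that shares 69.3% of its 50-base stretches, mostly with Psme2, and Psme2 shares 28.3% of its own. Reads of the pair may have been split, and Psme2b had 8.14% to 26.1% of their summed reads per library.

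The 35 other tested subunits had no call in the diabetes comparison. Their median log2 difference was 0.08, with 24 of 35 above 0, against a median of 0.59 with 5 of 5 above 0 in the immuno set and -0.01 with 49.2% above 0 over all genes. At an unadjusted p under 0.05 there were 4 of the 40 genes (Psmb8, Psmb4, Psme1 and Psme2), 10% against 18.9% of all genes. Groups did not overlap, with diabetic saline higher, for 3 of 40 (Psmb8, Psme2 and the alpha subunit Psma7), 7.5% against 8.19% of all genes, and for none with diabetic saline lower, against 8.34%. These shares are at or under the background, and the immuno set holds 3 of the 4 genes in the first and 2 of the 3 in the second.

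Among the core genes outside the immuno set, the largest difference was that of Psmb4. It had 73.7, 64.4 and 36.1 normalized counts in non-diabetic saline and 88.8, 83.3, 73.2 and 93.8 in diabetic saline libraries. The log2 difference was 0.59 (SE 0.21, limma adjusted p = 0.103), and non-diabetic saline replicate 3 was the lowest library. Without that library the difference was 0.29, and without both libraries with title numbers under 100 it was 0.24. Psmb6 had 29.7, 33.6 and 28.7 against 36.8, 45.3, 37.0 and 24.8, with a log2 difference of 0.20 (SE 0.23). Psmb7 had 41.5, 46.3 and 32.4 against 50.4, 49.98, 50.8 and 19.5. Its log2 difference was 0.01 (SE 0.29), its sign turned under several settings, and 34.9% of its exon bases lie opposite those of Nek6. The 4 non-catalytic beta genes ran from -0.04 to 0.59 and the 7 alpha ring genes from -0.16 to 0.35. Of the chaperones of the cap, Psmd10 stood at 0.15 and Psmd5 at 0.38.

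None of the 17 tested Psmc and non-ATPase Psmd genes of the 19S cap passed the test. The 6 ATPase genes had log2 differences of 0.04 to 0.46, the highest being Psmc1 with 31.0, 58.0 and 36.1 normalized counts in non-diabetic and 32.8, 59.2, 56.8 and 86.7 in diabetic saline libraries (SE 0.26, limma adjusted p = 0.368). The 11 non-ATPase genes had log2 differences of -0.22 to 0.33, and none of their 95% intervals reached beyond 1 log2 unit on either side of 0. Psmd8, a lid subunit, had 73.1, 48.1 and 39.9 against 63.2, 59.2, 67.2 and 67.3. Over all 40 tested genes, 34 had a 95% interval within 1 log2 unit of 0, so for these a change larger than that lay outside the interval, while smaller ones may have gone undetected at this depth.

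Of the other activators, Psme3, which forms the nuclear activator PA28 gamma, had 53.2, 44.4 and 32.4 normalized counts in non-diabetic and 43.2, 51.8, 42.2 and 86.7 in diabetic saline libraries. Psme4, the activator also called PA200, had 69.3, 66.2 and 73.5 against 74.4, 59.2, 56.8 and 83.2. Their log2 differences were 0.33 (SE 0.24) and -0.04 (SE 0.19), with limma adjusted p of 0.499 and 0.936. Diabetic saline replicate 4 was the highest library of its group for both genes.

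Between diabetic Esm-1 and diabetic saline libraries no proteasome gene passed the threshold. The count was 0 of 40 with limma and with edgeR, and limma called 0% of all 8239 genes. DESeq2 called none of the 40 either, but it gave Psmb8 no adjusted p here and so no verdict on that gene. Other members, above all those with fewer reads than Psmb8, may lack an adjusted p too. The DESeq2 count of 0 is therefore not a verdict on all 40. DESeq2 called 1 gene higher and 29 lower over the whole table, edgeR none. At an unadjusted limma p under 0.05 there was 1 of 40 (2.5%), the alpha subunit Psma6, against 10.9% of all genes. Psma6 had 36.0, 48.1, 43.9 and 35.4 normalized counts in diabetic saline and 46.9, 54.4 and 63.4 in diabetic Esm-1 libraries. Its log2 difference was 0.42 (SE 0.20, limma adjusted p = 0.446), and the groups overlapped at Esm-1 replicate 1.

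In the same comparison, all 5 genes of the immuno set had log2 differences below 0, with a median of -0.16, but none passed the test. Psmb8 had 40.4, 35.3 and 37.1 normalized counts in the Esm-1 libraries, inside the diabetic saline range of 30.1 to 56.5. The difference was -0.16 (SE 0.25, 95% interval -0.68 to 0.37, limma adjusted p = 0.867), and with a term for the glomerular marker mean it turned to 0.68. Psmb9 had 13.7, 6.68 and 7.18 in the Esm-1 libraries, with a difference of -0.47 (SE 0.42, 95% interval -1.34 to 0.40), the lowest of the 40 genes.

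Psmb10 had 16.9, 13.4 and 13.2 normalized counts in the Esm-1 libraries (log2 difference -0.11, SE 0.34), Psme1 had 59.9, 50.5 and 62.3 (-0.11, SE 0.21) and Psme2 had 85.3, 75.3 and 53.9 (-0.16, SE 0.20). Each of these ranges overlapped that of diabetic saline. The 35 other tested subunits had a median of -0.00, with 17 of 35 above 0, against 0.00 with 50.7% above 0 over all genes.

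Of the constitutive catalytic genes, Psmb6 had 36.5, 45.8 and 49.1 normalized counts in the Esm-1 libraries and Psmb7 had 54.7, 33.4 and 55.1, with log2 differences from diabetic saline of 0.30 (SE 0.23) and 0.22 (SE 0.29). Psmb4 had 80.7, 83.0 and 75.4 (log2 difference -0.08), and Psmc1 had 48.2, 46.7 and 49.1 (-0.21), a range inside that of diabetic saline. Psmd11, a cap subunit, had 102, 84.2, 91.3 and 113 in diabetic saline and 109, 132 and 129 in Esm-1 libraries, with a difference of 0.34 (SE 0.19, limma adjusted p = 0.554). Groups did not overlap, with Esm-1 lower, for 2 of 40 genes (Psmd6 and Psma7) against 5.47% of all genes, and with Esm-1 higher for none, against 3.73%. The 95% interval lay within 1 log2 unit of 0 for 37 of the 40 genes.

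**Figure D3:**
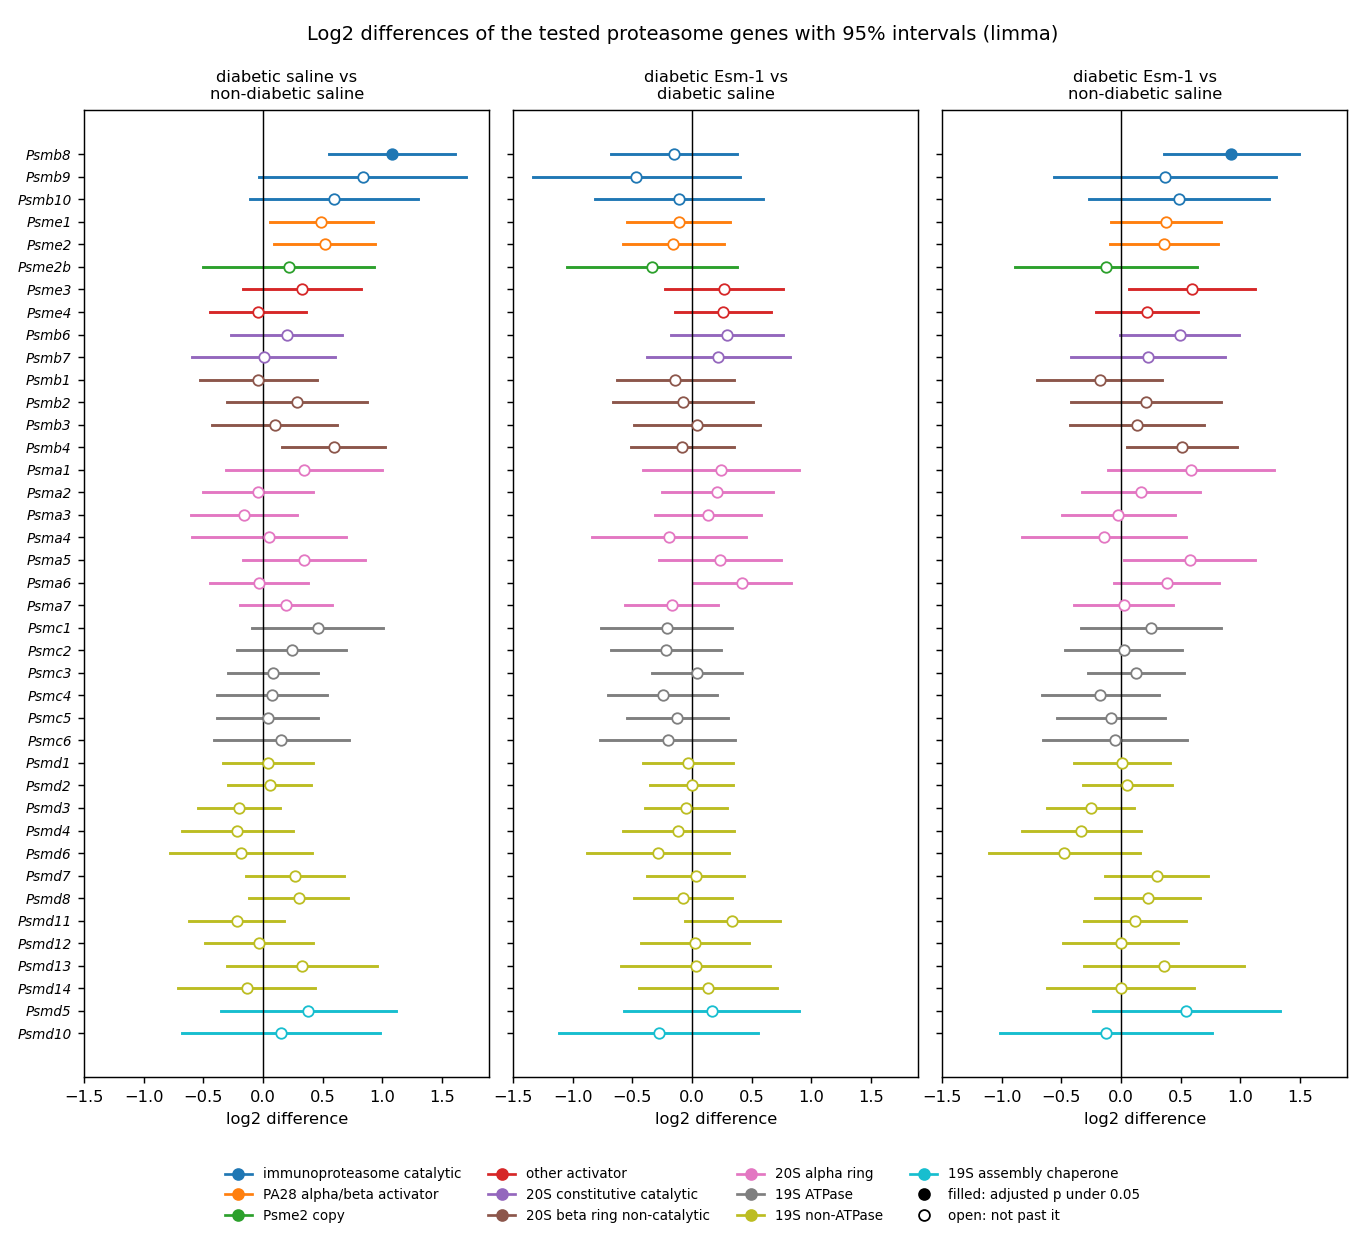
Log2 differences (points) with 95% intervals (lines, limma) of the 40 tested proteasome genes in the 3 comparisons, coloured by role. Psmb8 alone passes the threshold, at 1.08 in diabetic against non-diabetic saline and at 0.93 in diabetic Esm-1 against non-diabetic saline.

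Between diabetic Esm-1 and non-diabetic saline libraries, Psmb8 again rose and was the only one of the 40 tested genes to pass (2.5%, against 15.3% of all genes called in either direction, 7.19% higher and 8.11% lower). Its log2 difference was 0.93 (SE 0.27, limma adjusted p = 0.0248), a 1.90-fold rise, and the 3 Esm-1 libraries were above the 3 non-diabetic ones. Without the libraries with title numbers under 100 it was 0.86 (limma adjusted p = 0.0434). The call was lost when non-diabetic saline replicate 1 (limma adjusted p = 0.0973) or replicate 3 (0.0687) or Esm-1 replicate 1 (0.0665), 2 (0.0636) or 3 (0.077) was left out, with a common total per library (0.0505), without the intensity trend (0.0591) and with a term for title numbers (0.055). With a term for the glomerular marker mean the difference was 2.33 but the limma adjusted p was 0.0782.

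The other genes of the immuno set had log2 differences of 0.36 to 0.49 in this comparison and did not pass. At an unadjusted p under 0.05 there were 4 of 40 genes (Psma5, Psmb4, Psmb8 and Psme3), 10% against 27.4% of all genes. Groups did not overlap, with Esm-1 higher, for 10 of 40, which is 25% against 15.4% of all genes, and with Esm-1 lower for none, against 17.4%. The 10 were Psma2, Psma5, Psma6, Psmb4, Psmb6, Psmb8, Psmd5, Psmd13, Psme1 and Psme3, of which 2 belong to the immuno set, and 9 of them did not pass the test. Psme3 had 59.9, 68.7 and 65.8 normalized counts in the Esm-1 libraries, with a difference of 0.59 (SE 0.25, limma adjusted p = 0.127). Psme4 had 84.6, 99.2 and 63.4, with a difference of 0.22 (SE 0.21). Among the more abundant cap genes, Psmd7 had 79.4, 66.7 and 91.0 (difference 0.30) and Psmd3 had 95.1, 76.3 and 107 (difference -0.26) in the Esm-1 libraries, and both overlapped non-diabetic saline, at 54.5, 68.9 and 68.6 for Psmd7 and 108, 122 and 101 for Psmd3.

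The balance between immunoproteasome and constitutive catalytic subunits can be read within a library, where the scaling cancels. Of the reads of the 6 catalytic genes, Psmb8, Psmb9 and Psmb10 together made up 28.2%, 29.7% and 38.9% in the non-diabetic saline libraries. In diabetic saline they made up 41.1%, 45.9%, 47.1% and 51.7%, and in diabetic Esm-1 libraries 41.9%, 39.7% and 34.3%. The highest share, that of diabetic saline replicate 4, stands beside a low Psmb7 of 11 reads. Psmb7 had 19.5 normalized counts there and 49.98 to 50.8 in the rest of the group. Replicate 4 also had the fewest Psmb8 reads of its group, 17. Every diabetic saline library was above every non-diabetic one, while the Esm-1 libraries overlapped both groups. The exact 95% binomial intervals, which cover counting error only, were 21.7% to 35.5% for the lowest library and 38.4% to 64.8% for the highest, so single libraries are loosely placed. Those of the nearest libraries overlapped, at 28.8% to 49.7% for non-diabetic saline replicate 3 and 34.1% to 48.5% for diabetic saline replicate 1. The order of these libraries is within counting error. Per kilobase of exon the group means were 23.8% ± 5.08, 35.7% ± 3.47 and 28.6% ± 3.69 (SD, n = 3, 4 and 3). No test was made of these shares, because the genes in them were chosen with earlier results known.

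**Figure D4:**
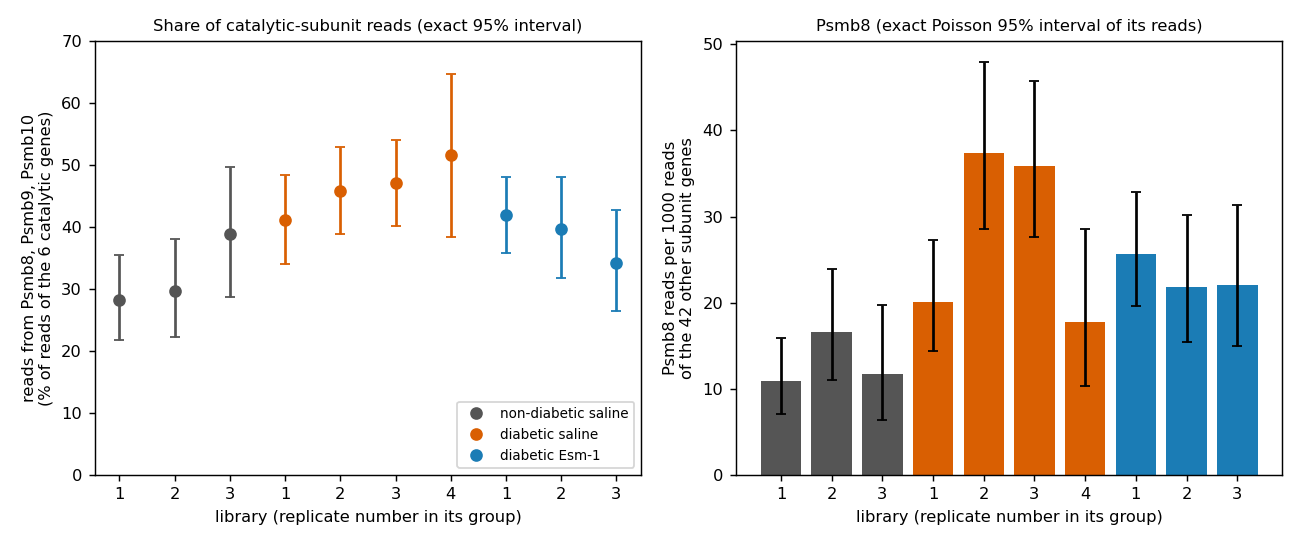
Left, share of the reads of the 6 catalytic genes that came from Psmb8, Psmb9 and Psmb10, by library, with exact 95% binomial intervals; right, Psmb8 reads per 1000 reads of the 42 other subunit genes, with exact 95% Poisson intervals of its reads. The shares of the 4 diabetic saline libraries (41.1% to 51.7%) lie above those of the 3 non-diabetic ones (28.2% to 38.9%), but the intervals of the nearest libraries overlap.

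Relative to 1000 reads of the 42 other subunit genes, Psmb8 had 10.9, 16.5 and 11.7 reads in non-diabetic saline, 20.1, 37.3, 35.8 and 17.8 in diabetic saline and 25.6, 21.9 and 22.1 in diabetic Esm-1 libraries. On this internal scale too, all 7 diabetic libraries were above all 3 non-diabetic ones. The other 4 genes of the immuno set together had 68.1, 71.5 and 95.6, then 101, 98.5, 115 and 114, and then 111, 90.4 and 81.1. For this sum, which is mostly reads of Psme1 and Psme2, diabetic saline lay above non-diabetic saline in every library, and the Esm-1 group overlapped both. Taken singly, non-diabetic against diabetic saline overlapped for Psmb9 (2.36 to 6.71 against 5.51 to 11.8) and Psmb10 (5.01 to 10.9 against 7.33 to 14.7). Psme1 overlapped too (24.2 to 33.5 against 32.4 to 50.3), and Psme2 did not (27.2 to 44.4 against 45.9 to 52.6). The log2 median of the immuno set minus that of the other tested subunits was -0.83 ± 0.22 (SD, n = 3), 0.09 ± 0.35 (n = 4) and -0.02 ± 0.20 (n = 3) in the 3 groups in that order, but Psmb8 itself is the median gene of the 5 in every library except diabetic saline replicate 2. By pair, the log2 ratio of Psmb8 to Psmb5 was 1.22 ± 0.27, 2.60 ± 0.46 and 2.48 ± 0.16, that of Psmb9 to Psmb6 was -2.07 ± 0.75, -1.43 ± 0.63 and -2.19 ± 0.73, and that of Psmb10 to Psmb7 was -1.89 ± 0.80, -1.30 ± 0.58 and -1.63 ± 0.36. The ratio to Psmb5 rests on 4 to 12 reads of that gene per library.

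Beside Psmb8, markers of other cells were summed per library. The summed myeloid markers were 98.9 to 127 normalized counts in non-diabetic saline, 130 to 174 in diabetic saline and 120 to 158 in diabetic Esm-1 libraries, on average higher in both diabetic groups, as Psmb8 was, with overlap between Esm-1 and non-diabetic saline. The 2 lymphocyte markers summed to 10.9 to 24.1, 5.31 to 10.2 and 2.39 to 13.4, lower on average in both diabetic groups. The 13 distal nephron markers summed to 1676 to 4051, 3477 to 5229 and 3811 to 6648, with means of 2992, 4320 and 5418. The 15 proximal tubule markers summed to 828 to 2828, 737 to 1804 and 1416 to 2424. The part of these cells in the level of Psmb8 was not tested.

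The genes below the filter were Psmb5, Psmd9, Psmf1 and Psmg1 to Psmg4. Psmb5 had 7.43, 8.16 and 7.48 normalized counts in non-diabetic saline, 3.20, 7.40, 7.75 and 7.08 in diabetic saline and 7.16, 4.77 and 5.99 in diabetic Esm-1 libraries. Psmf1, which inhibits the core, had 7.43, 9.07 and 8.73, then 6.40, 7.40, 10.3 and 5.31, and then 3.91, 8.58 and 9.58. All groups of Psmf1 overlapped. For Psmb5, diabetic saline overlapped both other groups, while every diabetic Esm-1 library (at most 7.16) was below every non-diabetic one (at least 7.43). That gene had 4 to 12 reads per library and was not tested. Of all tested genes, 17.4% were lower without overlap in that comparison. Of the chaperones that pair up and help build the core, Psmg1 ran from 3.45 to 19.9 and Psmg4 from 2.49 to 14.3 over all libraries. Psmg2 had no read in non-diabetic saline replicates 2 and 3 or in diabetic Esm-1 replicate 3, where a count of 0 allows up to 2.72, 3.74 and 3.59 normalized counts, and at most 4.77 elsewhere. Psmg3 was at 0 in diabetic saline replicates 3 and 4 and in diabetic Esm-1 replicate 2, which allows up to 2.58, 5.31 and 2.86, and reached 4.99 at most. Psmd9, a chaperone of the cap, ran from 1.25 to 10.9.

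Genes that work with the proteasome were described from lists. Of 23 tested genes of proteasome assembly, shuttling and regulation, 1 rose and 1 fell with diabetes, where 3.73% of all genes rose and 1.81% fell, so the counts are near the background. The list median was -0.03. The gene that rose was Shfm1, whose product is a small subunit of the 19S lid that the symbol rule does not catch. It had 9.29, 9.98 and 13.7 normalized counts in non-diabetic and 21.6, 21.3, 28.4 and 24.8 in diabetic saline libraries, a 2.10-fold rise (log2 1.07, SE 0.28, limma adjusted p = 0.0238). All 4 diabetic saline libraries lay above the non-diabetic ones. Zfand2a, a stress-induced protein that binds the proteasome, fell by 0.61 on the log2 scale (SE 0.17, limma adjusted p = 0.0349), and by 0.90 between diabetic Esm-1 and non-diabetic saline (SE 0.18, limma adjusted p = 0.00184).

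Of 15 ubiquitin and ubiquitin-activating or conjugating genes, 1 rose in each comparison with non-diabetic saline, where 3.73% of all genes rose with diabetes and 7.19% in diabetic Esm-1 libraries. It was Ube2l6, the enzyme that conjugates the ubiquitin-like protein ISG15, from 5.41 ± 2.56 (SD, n = 3) to 23.2 ± 4.64 (n = 4) normalized counts, 3.94-fold (limma adjusted p = 0.000683), and it was 15.9 ± 2.73 (n = 3) with Esm-1, 2.76-fold over non-diabetic saline (limma adjusted p = 0.00737). Of 16 autophagy genes, the other route of protein breakdown, none passed with diabetes, and 1, Gabarapl1, rose between diabetic Esm-1 and non-diabetic saline, near the same background (log2 0.93, limma adjusted p = 0.00557).

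The genes that carry and present the peptides held more calls than the proteasome. Of 12 peptide supply and MHC class I genes, 6 rose with diabetes (H2-K1, B2m, H2-D1, Nlrc5, Tap1 and Tapbp), where 3.73% of all genes did, with a list median of 0.62, and 5 were higher in diabetic Esm-1 than in non-diabetic saline libraries, where 7.19% of all genes were. H2-K1, an MHC class I heavy chain, went from 263 ± 30.2 (SD, n = 3) to 598 ± 135 (n = 4) normalized counts, and B2m, its light chain, from 156 ± 32.5 to 395 ± 112. Among the interferon regulators, the transcription factor Irf7 rose 5.69-fold with diabetes and the ISG15 protease Usp18 rose 6.78-fold (limma adjusted p = 4.25e-08 and 1.48e-07). The list as a whole moved less, with a median log2 difference of 0.26 and 11 of 16 tested genes above 0. In each of these 5 lists, no gene passed the limma test between diabetic Esm-1 and diabetic saline.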

How the data were processed

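RNA of isolated glomeruli was measured in 10 libraries, grouped by the treatment and injection fields of the labels. Per the submitters' processing notes, Trimmomatic 0.36, STAR 2.5.3a, the mm9 build, R 4.0.2 and DESeq2 1.28.1 were used. Neither the read counter nor its annotation and strandedness is given in the sources used here. The deposited signal values are normalized counts that the authors made, in 1 table of 12934 genes. Expressed in units of 1 read, 100% of the 129340 values were whole within 0.001, which recovered the depth of each library.

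Values were log2 transformed after adding 1. The filter was a value of 10 or more in 3 or more libraries, which left 4695 genes untested and kept 8239. These entered a limma 3.58.1 fit (R 4.3.3) of the 3 groups with an intensity trend, and p-values were adjusted over all of them. On the recovered reads edgeR 4.0.16 (quasi-likelihood, TMM) called 332 genes higher and 185 lower with diabetes and DESeq2 1.42.0 called 266 and 143, where limma called 307 and 149. Between diabetic Esm-1 and non-diabetic saline edgeR called 648 and 646, DESeq2 501 and 538, and limma 592 and 668.

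The members, the gene lists and the tests were chosen with earlier results of these data known. Named whatever their values were the immuno set, Psmb5, Psmb6, Psmb7, Psme3, Psme4, Psmf1 and Psmg1 to Psmg4. Among other subunits, those past the threshold were named, or, where none passed, the 3 with the largest difference and a mean of at least 50, and in each pathway list up to 4 called genes per comparison. Members of small counts, Psma6, and Tap1, Tapbp and Shfm1's per-library values were added after their values were seen. A result that the rule selects in the interferon list is not reported here.

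Alternatives were no filter, a pseudocount of 5, a common library total with and without Rn45s, Lars2 and Mir6236, edgeR, DESeq2, no intensity trend, 2 groups only, a term for title numbers under 100, the 2 such libraries left out, a term for the mean of podocyte, endothelial and mesangial markers, and each library left out in turn. Psme2 with Psme2b added was chosen after seeing the data. The scripts were tested on simulated data. Exon lengths, shared 50-base stretches and overlaps come from GENCODE M21 on GRCm38, which all 47 symbols matched, and promoters from RefSeq on GRCm38.p6. As the authors used mm9, these served for lengths and names, and no deposited value was placed by coordinate. Intervals from reads cover counting error only.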

Additional observations from a re-analysis of the deposited data

Results flagged for a closer look

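In the diabetic saline group, the only one large enough for a check of single libraries, 49 sets of 4 values were examined for a library far from the other 3 by Dixon's ratio of gap to range, and 3 stood out. Chance flags about 1 in 20 groups. Psma7, an alpha ring gene, was at 56.7 normalized counts in replicate 4, where the other 3 libraries lay between 45.3 and 46.5. Psmb7, the constitutive catalytic gene that Psmb10 replaces, was at 19.5 in replicate 4, where the others lay between 49.98 and 50.8. Psmb5, the constitutive gene that Psmb8 replaces, was at 3.20 in replicate 1, where the others lay between 7.08 and 7.75, on 4 reads. Replicate 4 is the library with the fewest reads and has a title number under 100, and the part of either in these values was not tested.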

How the results depend on the processing

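The count of proteasome genes past the threshold was 1 with diabetes, and 1 in the immuno set, both Psmb8. Both counts fell to 0 without the intensity trend and ranged from 0 to 1 when single libraries were left out. Between diabetic Esm-1 and non-diabetic saline both counts were also 1. They fell to 0 with a common total per library, without the intensity trend, with a term for title numbers under 100 and with a term for the glomerular marker mean, and ranged from 0 to 1 when single libraries were left out. Psmb8 kept its sign in both comparisons under every setting run, from 0.94 to 1.65 and from 0.79 to 2.33, and passed the threshold in 19 and 13 of the 22 fits, the main one included. In the Esm-1 comparison the counts were 0 under every setting run, though DESeq2 gave Psmb8 no adjusted p there and other members may lack one too. With the common total the median log2 difference of all genes with diabetes was -0.09, where the main fit had -0.01. The cause of the lost calls was not tested.

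Signs turned only for genes that had not passed in the comparison concerned, in 32 of the values computed. With diabetes Psmb7 turned to -0.074 with a common total and to -0.068 with the title-number term, and Psme3 to -0.093 without the 2 libraries with title numbers under 100. In the Esm-1 comparison the marker term turned Psmb8 to 0.68, Psmb10 to 0.0023, Psmc1 to 0.28, Psmd11 to -0.21, Psmd7 to -0.24 and Psme2 to 0.16. The marker mean did not overlap between groups, so fits with that term cannot separate it from the group. The title-number term turned Psmb7 to -0.0065, and leaving out the 2 libraries turned Psmb7 to -0.11 and Psme1 to 0.036. Between diabetic Esm-1 and non-diabetic saline the title-number term turned Psmb7 to -0.074, and the marker term turned Psmd11 to -0.80, Psmd7 to -0.15 and Psme1 to -0.18. With single libraries left out, the range with diabetes was -0.13 to 0.34 for Psmb7 and -0.14 to 0.039 for Psme4. In the Esm-1 comparison it was -0.22 to 0.055 for Psmb10, -0.11 to 0.45 for Psmb7, -0.16 to 0.078 for Psmd3, -0.075 to 0.18 for Psmd7, -0.22 to 0.036 for Psme1 and -0.30 to 0.032 for Psme2, and between diabetic Esm-1 and non-diabetic saline -0.13 to 0.33 for Psmd11.

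No paired analysis was possible because the labels give no replicate numbers that the groups share. Replicates were numbered by record order only. Depth limits the low genes: Psmb9 had 4 to 21 reads per library.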
